A study of Arabidopsis thaliana with 4 samples.

Results

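The EMB (EMBRYO DEFECTIVE) genes of Arabidopsis thaliana are numbered after mutants whose embryos stop developing in the seed. They were chosen as the protein-coding nuclear genes whose primary symbol is EMB plus a number in a RefSeq gene table, in either letter case. This gave 160 of 27444 genes, 112 with the symbol in capitals and 48 with it in lower case. The measurement was chromatin immunoprecipitation followed by sequencing (ChIP-seq) with an anti-Myc antibody on whole seedlings. Seeds were kept at 4 °C for 3 days, given 3 to 4 h of white light and held in darkness for 4 days. The 4 libraries were 1 ChIP and 1 input library of wild type (Col) and 1 ChIP and 1 input library of seedlings labelled as TCP4 overexpression (mTCP4). The promoter of the transgene, and how many lines the mTCP4 seedlings came from, are details not given in the sources used here. The labels state the aim as finding candidate targets of TCP4 in seedlings. With 1 library per group there was no replicate error, and no test between genotypes was made.

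TCP4 is a CIN-type TCP transcription factor, a class that limits cell proliferation and promotes differentiation in leaves and cotyledons. Most EMB genes with a known product encode basic cell machinery. Many act in organelle RNA processing, translation or chromosome replication, and loss of such functions is lethal early in seed development. Few encode regulators of embryo pattern.

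The authors deposited 1 list of mTCP4 against Col with 7470 summits, the positions of highest coverage, in 6220 numbered peaks. Each summit carries the authors' fold, a linear ratio of its fragment pileup to the control level there. A median of 86 fragments, and at least 43 and at most 355, covered a summit. Intervals given with a fold are 95% Poisson intervals of that number, and those given with a share of genes are exact (Clopper-Pearson) 95% intervals. Both cover counting error only. A gene was said to hold a summit when one lay from 1000 bp outside to 200 bp inside either of its ends. The gene table gives no strand, so start and end were not told apart.

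Few EMB genes held a summit. There were 14 of 160 (8.75%, interval 4.87 to 14.2%), where 17.4% of all protein-coding genes did. The group was proposed with its low count known, so these shares are a description with no test. Of the EMB genes 146 had no summit in their windows, 11 had 1, 2 had 2 and 1 had 3. The symbols in capitals gave 8 of 112 genes (7.14%, interval 3.13 to 13.6%). Those in lower case gave 6 of 48 (12.5%, interval 4.73 to 25.2%), which overlaps the other interval and includes the share of all genes. By chromosome the number of EMB genes with a summit was 5 of 38 on chromosome 1, 3 of 30 on chromosome 2, 1 of 26 on chromosome 3, 3 of 23 on chromosome 4 and 2 of 43 on chromosome 5. The share was below that of other genes of the same chromosome on each of the 5, with the smallest difference on chromosome 1, at 13.2% against 17.3%.

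EMB genes tended to lie closer to their neighbours than other genes did, and genes with the smallest gaps held summits least often. The gap of a gene was taken as the distances to the nearest protein-coding gene on both sides, added, with 0 where genes overlap. The median gap was 1192 bp for EMB genes and 1835 bp for other genes. Other genes were therefore placed in 10 bins of equal size by gap, and the share of each bin was averaged over the bins of the EMB genes. Other genes of like gap held a summit in 16.5% of cases, so the EMB share was 0.53 times that of genes of like gap. The gap alone thus moved the comparison share by little, from 17.5% of other genes to 16.5%.

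The share was lower than that of genes of like gap on both sides of the median gap. Below the median gap of all genes, 8 of 102 EMB genes held a summit (7.84%, interval 3.45 to 14.9%). Other genes of like gap did so in 13.8% of cases, inside that interval. At or above the median gap, 6 of 58 did (10.3%, interval 3.89 to 21.2%), against 21.3%, just above the interval. In the 2 bins with the smallest gaps the EMB shares, 7.41 and 9.09%, were near those of other genes, 8.85 and 11.1%. In the 2 bins with the largest gaps 0 of 10 and 0 of 3 EMB genes held a summit, with intervals that reach 30.8 and 70.8%. Single bins held 3 to 27 EMB genes, and the interval of each included the share of other genes.

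**Figure D1:**
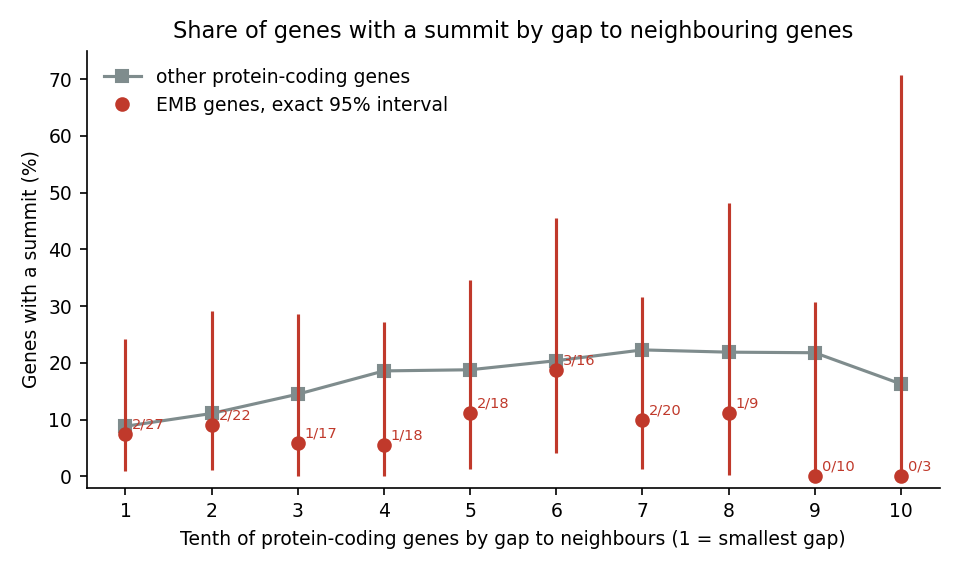
Percentage of genes with a summit in their windows (vertical axis) in 10 equal-count bins of protein-coding genes by gap to neighbouring genes (horizontal axis, smallest gap first). Red points with exact 95% intervals are EMB genes, with the count printed beside each, and grey squares are other genes; the red points lie below the grey squares in each bin, and every interval includes the grey square.

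Single gene ends were also counted by the gap on their own side. Where the neighbour overlapped, 1 of 60 EMB gene ends had a summit in its window (1.67%, interval 0.0422 to 8.94%), against 3.82% of such ends of other genes. With a side gap of 1 to 249 bp it was 1 of 90 (1.11%, interval 0.0281 to 6.04%), against 4.86%, and with 500 to 999 bp 3 of 34 (8.82%, interval 1.86 to 23.7%), against 12%. Of the 54 EMB gene ends with a side gap of 1000 to 1999 bp, 3 had a summit in their window (5.56%, interval 1.16 to 15.4%), against 13.2% of such ends of other genes. With a side gap of 2000 bp or more it was 2 of 42 ends (4.76%, interval 0.582 to 16.2%), against 13.1%. With a side gap of 250 to 499 bp the order was the other way, at 4 of 40 ends (10%, interval 2.79 to 23.7%) against 7.87%. Each of these intervals includes the value of other genes. Counted only over the free bases between an EMB gene and its neighbours, up to 1000 bp from each end, there were 0.096 summits per kilobase (Poisson interval 0.0525 to 0.161) and 0.138 for other genes. The second value lies inside the interval of the first.

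EMB genes were also longer than other genes, with a median length of 2989 bp against 2075 bp. The share of EMB genes with a summit was nearly the same in the 4 bins of gene length, from 8.33 to 9.09%. Other genes ran from 12.7% in the shortest bin to 19.5% in the longest. With gap and length bins crossed, other genes of like gap and length held a summit in 17.5% of cases.

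Summits were also counted by distance outside the gene ends. The range up to 1000 bp lies in the windows whose low count was known when the genes were chosen, so its value is a description. From 0 to 1000 bp outside the ends, EMB genes had 0.0531 summits per kilobase and gene (Poisson interval 0.0309 to 0.0851, from 17 pairs of gene and summit), against 0.0884 for other genes of like gap, a ratio of 0.601. From 1000 to 2000 bp the densities were 0.05 and 0.0621, a ratio of 0.805. From 2000 to 5000 bp they were 0.0667 and 0.07. Beyond 2000 bp and up to 50000 bp, the ratios ran from 0.901 to 0.953. The ratios of different ranges were not tested against each other. A summit can be counted for several genes at larger distances, and several summits of 1 peak can be counted for 1 gene at any distance. The intervals are therefore too narrow. This holds also from 0 to 1000 bp, where the 17 pairs came from 13 EMB genes.

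**Figure D2:**
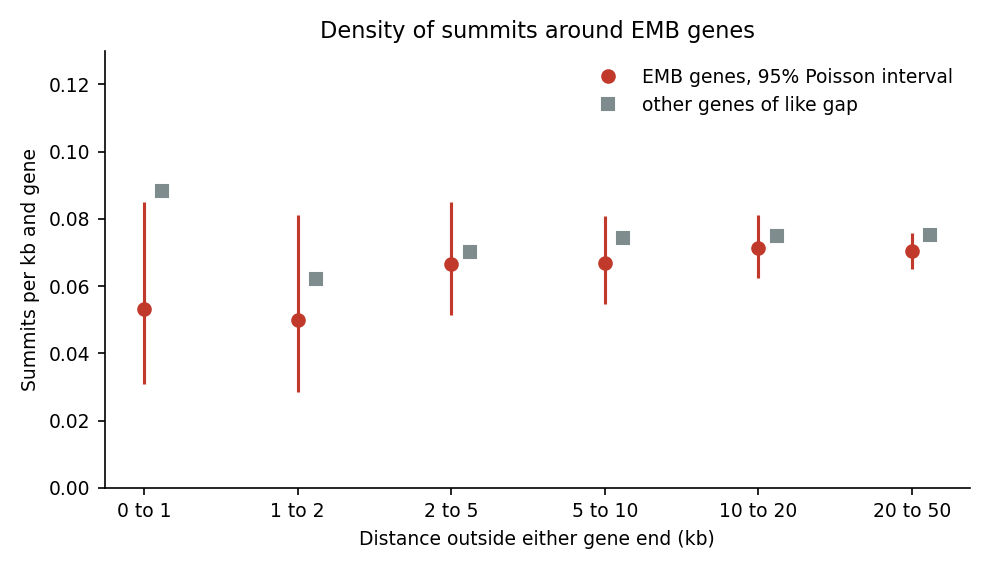
Number of summits per kilobase and gene (vertical axis) in ranges of distance outside either gene end (horizontal axis, kb). Red points with 95% Poisson intervals are EMB genes and grey squares other genes of like gap; in the innermost range, which the choice of genes used, the values are 0.0531 and 0.0884, and from 1000 to 2000 bp they are 0.05 and 0.0621.

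Inside the genes, more than 200 bp from both ends, EMB genes held 4 summits in 0.538 megabases, or 7.43 per megabase (Poisson interval 2.03 to 19.0). Other genes held 22.8 per megabase. Counted by gene, 2.5% of EMB genes and 3.74% of other genes held such a summit. Neither comparison was matched for gap or gene length. The distance from an EMB gene end to the nearest summit had a median of 7433 bp and lay between 6 and 117885 bp. Other genes weighted to the same gap bins had a median of 6427 bp, which lay inside the exact 95% interval of the EMB median, 6010 to 9754 bp. Of 160 EMB genes 101 had no summit inside them or within 5000 bp of either end (63.1%, interval 55.1 to 70.6%). Among other genes of like gap it was 56.7%, inside that interval. The EMB genes farthest from any summit were EMB2756 at 117885 bp, emb1441 at 91784 bp, EMB1075 at 68230 bp, EMB3003 at 58937 bp and EMB1144 at 54890 bp. EMB1075 is serine decarboxylase 1, EMB3003 a subunit of the plastid pyruvate dehydrogenase complex, and EMB1144 chorismate synthase, which makes the precursor of aromatic amino acids.

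The genes next to EMB genes share some summits with the EMB windows, so their count is not independent of the choice of genes. Of 319 adjacent protein-coding genes 43 held a summit (13.5%, interval 9.93 to 17.7%), where other genes of like gap did so in 16.3% of cases. Counting only summits outside the windows of EMB genes, which can only lower the count, 33 of 319 did (10.3%). No like count was made for other genes, so this share has no comparison.

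The 160 EMB genes were grouped by hand by the role of their product, with 116 given a role and 44 given none. The 44 include genes with a named product, such as EMB1674 and EMB269, so they are not a set of unknown function. Of those with a role 6 of 116 held a summit (5.17%, interval 1.92 to 10.9%), and of those with none 8 of 44 (18.2%, interval 8.19 to 32.7%). The intervals overlap, and the second share is near that of all genes. Roles were assigned with some of the summits known, and the split depends on which genes were given a role, so it is a description only. Among the 8 genes with a summit and no role are EMB975, EMB1674 and emb2734. The shares of single roles depend on such choices too, since moving a gene with a summit into a role would raise its share.

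Among the 50 genes of RNA processing and organelle gene expression 1 held a summit (2%, interval 0.0506 to 10.6%), against 16.8% of other genes of like gap. The group includes splicing factors such as EMB3011 (PRP16), the Sm-like proteins EMB2816 (LSM7) and emb1644 (LSM4), the exosome nuclease EMB2763 (RRP44A) and the pentatricopeptide protein EMB2453 (PPR5), none of which held one. The exception was emb2746, an RNase J that processes chloroplast transcripts. Of 25 translation genes 2 held a summit, emb2386, a protein of the large ribosomal subunit, and emb1067, a tRNA phosphotransferase. That share, 8%, has an interval of 0.984 to 26%, which includes the 17.1% of other genes of like gap. The tRNA deaminases emb2191 (TAD2) and EMB2820 (TAD3) and the ribosomal proteins EMB3010 (RPS6B) and EMB3126 (PRPL1) held none.

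No summit lay in the windows of the 10 genes of chromosome replication and division, which include the replication factor C subunits EMB1968 (RFC4) and EMB2775, EMB2771 (APC1, of the anaphase-promoting complex) and the cohesin loader EMB2773 (SCC2). The interval of that share reached 30.8% and includes the 16.7% of other genes of like gap. None lay in those of the 14 genes of protein folding, turnover and transport either, with an interval up to 23.2%, which includes the 15.8% of genes of like gap. They include the proteasome subunit EMB2107 (RPN5A), the nucleoporin EMB2766 (NUP62) and the chloroplast import protein emb1211 (TIC100). The counts of 0 in both groups rest on the assignment by hand, which left 8 genes with a summit without a role. Of 15 metabolic genes 1 held a summit, EMB2421 (6.67%, interval 0.169 to 31.9%), against 16.9% of genes of like gap. The remaining 2 with a role both held summits (interval 15.8 to 100%), against 14.8% of genes of like gap. A group of 2 genes, assigned by hand, is too small for a comparison. These genes are EMB1444 (LONESOME HIGHWAY LIKE 1), a basic helix-loop-helix transcription factor, and EMB1290 (CRK17), a cysteine-rich receptor-like kinase.

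**Figure D3:**
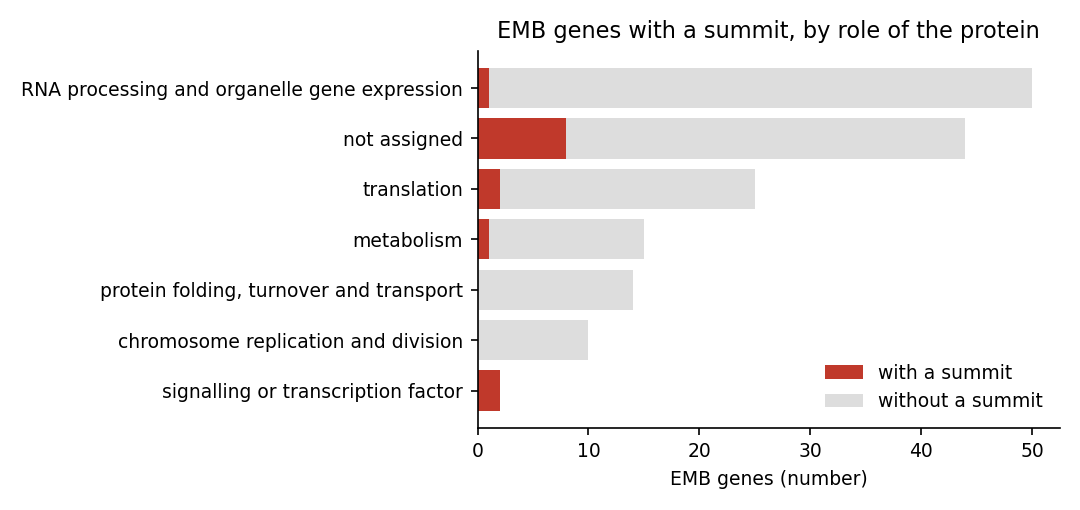
Number of EMB genes (horizontal axis) by role of the protein (vertical axis), with those holding a summit in red and the rest in grey. Of 50 genes of RNA processing 1 is red, of 44 given no role 8 are red, and both genes of signalling or transcription are red.

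The 14 genes held 18 distinct summits, with folds near those of other genes. Their median fold was 3.75, in a range of 2.02 to 7.38, and the summits in windows of other protein-coding genes had a median of 3.35 and quartiles of 2.71 and 4.60. The control level at the EMB summits had a median of 19.0, against 17.0 at those of other genes, and the fragments a median of 91.5 against 86. The control level is known only where a summit was called, so coverage at the 146 EMB genes without one was not analysed here and its part in their count was not tested.

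Many of these summits were shared with a neighbour. For 14 of the 18 summits (77.8%) another protein-coding gene also had the summit in its windows, which was so for 49.2% of gene and summit pairs of other genes. The EMB gene had the nearest end for 10 of 18 (55.6%), against 71.4% of pairs of other genes. These comparisons were not matched for gap. The smaller of a gene's side gaps had a median of 81 bp for EMB genes and 201 bp for other genes. Some of the 18 summits also belonged to the same peak, so they are not independent. Whether sharing differs between genes of like gap was not tested. For 5 of the 14 genes every summit was nearer to another gene.

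The highest fold was one of these 5. EMB975 (AT2G01860) had its summit on chromosome 2 (position 387687), 368 bp outside the lower-coordinate end, and the fold there was 7.38 (6.37 to 8.52). It lay nearer to EXGT-A3, a xyloglucan endotransglucosylase of wall loosening, at 209 bp. A second case was emb1967 (AT3G54350), 625 bp from a summit on chromosome 3 (position 20121392) whose fold was 4.78 (3.89 to 5.83). That summit lay 78 bp from AP3, the MADS-box gene of petal and stamen identity.

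The other 3 of these genes had lower folds. EMB1674 (NET2A, a protein of the actin-binding NETWORKED family) lay 326 bp from a summit of fold 3.99 (3.44 to 4.61) on chromosome 1 (position 21553211). It was inside the neighbouring gene MSL3, a gene of the MscS-like ion channel family. EMB3129 lay 244 bp from a summit of fold 2.89 (2.29 to 3.60) on chromosome 4 (position 1249884), and AT4G02800 lay 87 bp from it. EMB2757 (TANMEI) lay 400 bp from a summit of fold 2.58 (2.09 to 3.15) on chromosome 4 (position 14601298). MTO2, the gene of threonine synthase, lay 134 bp from it, and AT4G29850 also had it in its windows.

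The EMB gene itself had the nearest end for the next folds. The summit of emb2170 (AT1G21390), at position 7488999 of chromosome 1, had a fold of 6.61 (5.76 to 7.55), from 214 fragments. It lay 47 bp outside the gene and 219 bp from AT1G21380. For emb2746, the RNase J gene, the summit at position 25399509 of chromosome 5 had a fold of 6.39 (5.50 to 7.39) and lay 808 bp outside the gene, the farthest from its gene among the 18. No other protein-coding gene had it in its windows, and the nearest, AT5G63410, lay 1227 bp away. These 2 folds and that of EMB975 stood in the upper 10% of all 7470 summits, at percentiles of 91.2, 90.1 and 94.5.

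A pair of summits of 1 peak lay beside emb2386 (AT1G02780), the ribosomal protein gene. They stood 158 and 22 bp outside its lower-coordinate end, at positions 607641 and 607777 of chromosome 1, with folds of 4.75 (3.95 to 5.66) and 5.05 (4.20 to 6.02). The first was also in the windows of AT1G02770. EMB1444, the helix-loop-helix gene, had summits 361 and 583 bp outside the higher-coordinate end, on chromosome 1 (positions 1874091 and 1874313), and their folds were 5.15 (4.24 to 6.20) and 4.22 (3.4 to 5.19). Both were in the windows of AT1G06148, which was the nearer gene for the second, at 572 bp. Within each pair the intervals overlapped.

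The remaining summits had folds near or below the median of other genes. EMB2001 (AT2G22870) had a fold of 3.51 (2.83 to 4.30) just 6 bp outside the higher-coordinate end, on chromosome 2 (position 9741706). AT2G22880 and AT2G22890 also had it in their windows. For emb1067, the tRNA phosphotransferase gene, the summit lay 627 bp outside, on chromosome 2 (position 18688688), at a fold of 3.25 (2.50 to 4.16) and with no other protein-coding gene within 1000 bp. It was the only one of the 18 at the lowest control level of the list, 12.9. For emb2734 (AT5G19820) the summit lay 74 bp outside, on chromosome 5 (position 6695100), at a fold of 2.63 (2.06 to 3.31). EMB2421 (AT1G24340) had its summit 16 bp inside the gene, on chromosome 1 (position 8635203), at a fold of 2.41 (1.91 to 2.99). AT1G24330 lay 148 bp from it.

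The receptor kinase gene EMB1290 (AT4G23250) had the most summits and the lowest folds. It lies among related CRK genes on chromosome 4. Its 3 window summits, at positions 12167093, 12167354 and 12167459, belonged to 1 peak, with folds of 2.39 (1.91 to 2.95), 2.02 (1.55 to 2.59) and 2.02 (1.55 to 2.59). All 3 were also in the windows of CRK18, and the last was inside that gene. A further summit, at position 12163516 inside EMB1290, had a fold of 2.30 (1.69 to 3.08) and lay 323 bp from CRK16. How reads were divided between these related genes was not given in the sources used here.

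**Figure D4:**
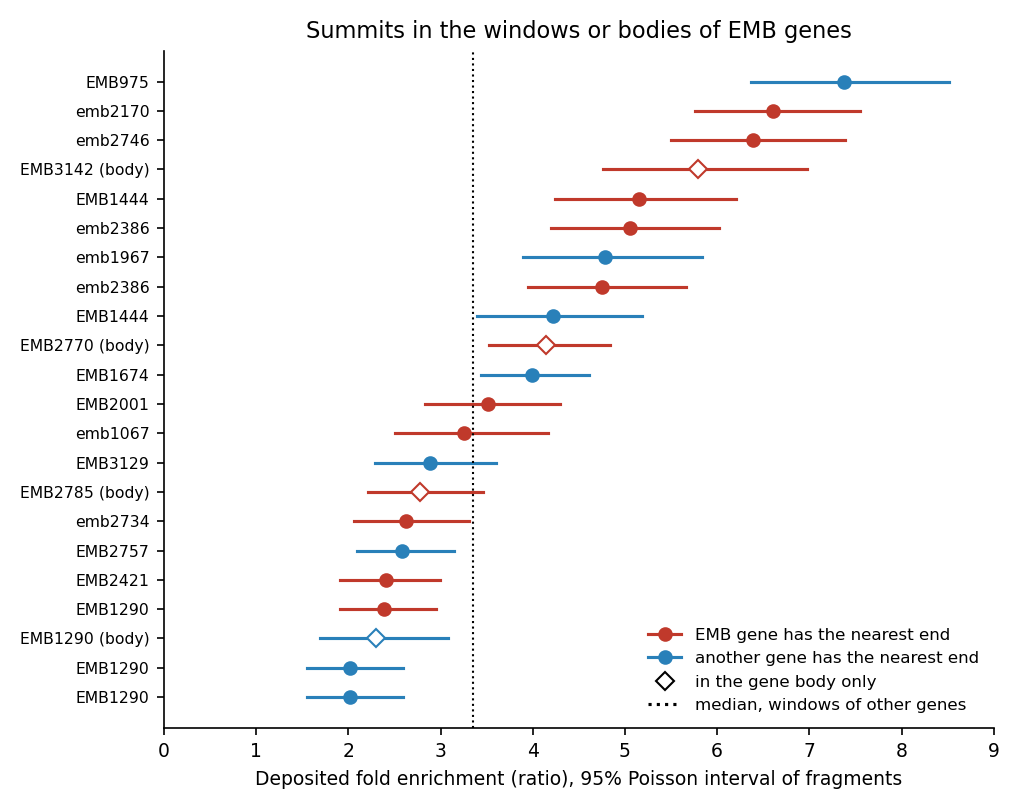
Deposited fold (horizontal axis, a ratio) with 95% Poisson intervals of each summit in the windows (filled circles) or only in the body (open diamonds) of an EMB gene, 1 row per summit. Red marks summits whose nearest gene end is that of the EMB gene and blue those nearer to another gene; folds run from 2.02 to 7.38, and the dotted line is the median of summits in windows of other genes, 3.35.

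The EMB genes just outside the windows were as follows. EMB2770 (STABILIZED 1, a splicing factor) had a summit 265 bp inside the gene, where the fold was 4.14 (3.52 to 4.84), and EMB2785 one 268 bp inside, where it was 2.78 (2.21 to 3.46). Both were thus inside the gene by little more than the 200 bp of the window. EMB2744 missed the outer limit by 1 bp, at 1001 bp with a fold of 2.40 (1.82 to 3.11), and AT5G39670 lay 179 bp from that summit. EMB269 (an OBG-like GTPase) and emb1211 followed at 1110 and 1135 bp, with folds of 3.63 (3.00 to 4.36) and 4.12 (3.38 to 4.98). A deeper summit lay in EMB3142, 4352 bp from the nearest end on chromosome 5 (position 20809067), at a fold of 5.79 (4.76 to 6.97). It was 1 of 3 EMB genes with a summit only in the body, and 143 EMB genes had none in window or body.

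Genes that carry an EMB number only as a synonym, because they are better known under another name, were not among the 160. Of 96 such genes 10 held a summit (10.4%, interval 5.11 to 18.3%), against 16.6% of other genes of like gap. The folds were highest at PEX5, the receptor of peroxisomal protein import, with 9.36 (8.22 to 10.6), and at NF-YA1, a CCAAT-binding factor subunit, with 6.27 (5.19 to 7.49). AKRP, a plastid ankyrin repeat protein, followed with 4.23 (3.58 to 4.97), and HOG1, adenosylhomocysteinase, with 3.87 (3.16 to 4.69). A list of TITAN and other genes taken as lethal to seed or ovule gave 3 of 34 (8.82%, interval 1.86 to 23.7%), against 17.4%. They were the proteasome subunit RPN1A, with a fold of 5.33 (4.70 to 6.03), and BIO1 of biotin synthesis and the acetyl-CoA carboxylase ACC1, both with 2.88. The list may include genes, such as SLP1 and PAS1, whose loss does not kill seed or ovule.

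Other sets of basic genes were found by name in the gene table, so each holds only a part of its class. Ribosomal protein genes outside the EMB group held summits in 6 of 65 cases (9.23%, interval 3.46 to 19.0%), against 14.9% of genes of like gap. Their highest folds were 5.46 at ATL5, 4.09 at SAG24, 4.05 at SSR16 and 3.67 at RPL23AB. Genes named as aminoacyl-tRNA synthetases gave 2 of 10, HRS1 with 7.87 and ATKRS-1 with 3.93. Those named as pentatricopeptide proteins gave 2 of 11, PPR336 with 5.44 and AT1G06580 with 2.53. The intervals of these last 2 shares, 2.52 to 55.6% and 2.28 to 51.8%, allow no comparison.

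Regulators of embryo pattern and maturation held summits at a share close to that of genes of like gap. There were 8 of 40 (20%, interval 9.05 to 35.6%), against 18.9%. BHLH32, also named TMO5, a factor of the embryonic root and vasculature, had a fold of 6.37 (5.29 to 7.61). PHB, a homeodomain factor of the upper leaf side, had 3.51, ATML1, a homeodomain factor of the epidermis, 3.11, and TPL, a corepressor of auxin response, 2.98. The median gap of this list, 6449 bp, was far above that of the EMB genes. The interval of the EMB share, up to 14.2%, overlapped that of the regulators, and some genes belong to more than 1 list.

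**Figure D5:**
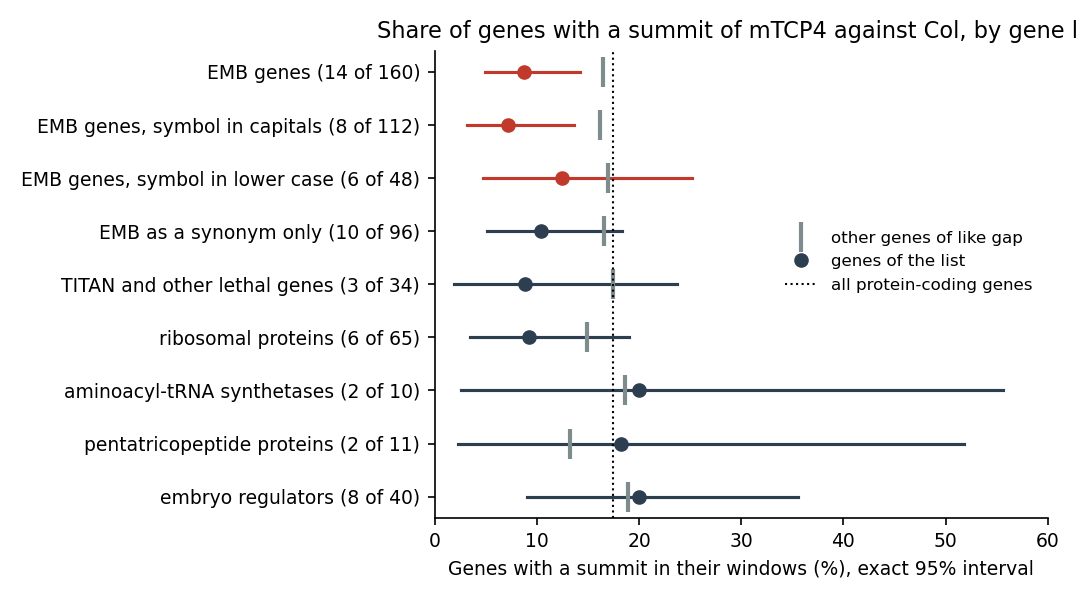
Percentage of genes with a summit in their windows (horizontal axis) for the EMB genes (red) and comparison lists (dark blue), with exact 95% intervals, counts beside the names, other genes of like gap as grey ticks and all protein-coding genes, 17.4%, as the dotted line. The EMB genes were chosen for their low share, 8.75%, against 16.5% at their tick; the intervals of the lists outside the EMB group include theirs.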

How the data were processed

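Anti-Myc ChIP-seq was done on 1 library of each genotype, with 1 input library each. Per the submitters' processing notes, Bowtie 0.12.9 and MACS2 2.1.1 were used with build TAIR10. Their settings, and whether the inputs entered the peak calls, were not given in the sources used here. The authors deposited a pileup signal, a fold (ratio), and −log10 p and q values for each summit. The deposited interval of 7469 of 7470 summits runs 5000 bp to each side, so the summit was used. All pileups (100%) were whole multiples of 0.737 within 0.01, taken as 1 fragment. MACS2 adds a pseudocount of 1 to numerator and denominator, and the control level was derived accordingly.

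Genes came from a RefSeq table of assembly TAIR10.1, whose coordinates are not printed. Python 3.11.15, pandas 2.3.3 and scipy 1.17.1 were used, and the assignment of summits was checked on invented genes. Gene groups were described by shares with exact 95% intervals and by direct standardisation over 10 gap bins of the genes outside each list, with no test. Members and lists were chosen with earlier results of these data known. Of 88 list names, 6 were not matched to a single gene (NO, PDF2, RPT2A, RSW12, SLW1 and SUS2). The gene SUS2 that encodes the splicing factor PRP8 entered through the name PRP8. EMB genes were left out of the comparison lists. Ribosomal, synthetase and pentatricopeptide genes were found by name in the table. Each of these lists is therefore incomplete, and most pentatricopeptide genes are not among them. Their shares depend on which genes are named so. Resistance genes named RPS were removed after the list had been seen. The text names every EMB gene with a summit, the 5 nearest and 5 farthest of the others, neighbours of their summits and up to 4 genes per list with the highest fold. Further members are given as examples of their role, chosen after their values were seen. Roles are textbook knowledge, assigned by hand and not to every gene with a known product. The planned counts of promoter motifs were not made, as no sequence was used here. Densities by distance, adjacent genes, single gene ends, free windows and the letter case of symbols were added after the data were seen.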

Additional observations from a re-analysis of the deposited data

How the results depend on the processing

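The EMB share was below that of other genes of like gap in all 19 alternatives, with ratios from 0.282 to 0.852 where the main value was 0.53. The group was proposed with its low count in this peak list known, and every alternative reuses the list. Those that change only the gap bins keep the same 14 of 160 EMB genes. Their common direction is therefore no independent support. It was highest, 0.852, with the deposited intervals, which reach 5000 bp to each side of a summit. When just 1368 summits, those of lowest control level, were kept, 1 of 160 EMB genes was left (0.625%), against 2.22% of genes of like gap, a ratio of 0.282. Windows of 2000 bp gave 17.5% of EMB genes and 23.4% of others, a ratio of 0.749, and the deposited intervals gave 36.9% and 43.3%. With the upper 50% of summits by fold, other genes of like gap gave 8.49%, by construction, and EMB genes 5%. The median distance to the nearest summit grew to 14351 bp with the upper 50% and to 41538 bp at the lowest control level, where fewer summits are left. The 4 summits in EMB gene bodies then became 2 and 1. In the other alternatives the EMB share ran from 5 to 12.5%, and the median fold of EMB summits from 3.20 to 4.13 in 10 alternatives. Letter case moved the ratio most among the choices of members, from 0.44 for capitals to 0.734 for lower case, a choice added after the data were seen. No paired analysis was possible because each group had 1 library and the result is 1 peak list.

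Depth limits these values. The peak list holds no coverage away from summits, so an EMB gene without a summit may have coverage below the calling threshold. The number of genes, not the depth, sets the interval of the share. With 14 of 160 genes, the interval of the EMB share spans 4.87 to 14.2%.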
